A study of Mus musculus with 3 samples.

Results

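Adamts1, Adamts2, Adamts4, Adamts5 and Adamts12 encode secreted proteases of the ADAMTS family, the metalloproteinases with thrombospondin motifs. They were found by symbol in the gene tables of 3 single-cell libraries, and all 5 were among the 31053 genes listed. They are described here across cell classes and libraries of mouse calvaria, the roof of the skull. All libraries came from C57BL/6 mice of 8 weeks. The control calvaria carried no tumour. In the scratch-negative group HNM007 cells, a mouse squamous carcinoma line, were placed on intact bone, a state the labels call pre-invasive. In the scratch-positive group a needle was drawn over the bone before the cells were placed, which strips off the periosteum, the sheath of connective tissue on bone, and the labels call this state invasive. Both tumour-bearing groups were sampled 1 week after implantation with the tumour removed, and live CD45+ (immune) and CD45- cells were combined 1:1 in every library.

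Each group had 1 library, and how many mice entered it is not given in the sources used here. No difference below therefore carries an estimate of the spread between mice, and no test between groups was possible. No library had scratched bone without a tumour, so scratching, loss of periosteum and invasion cannot be told apart. The values are counts of unique molecular identifiers (UMIs), each standing for 1 captured RNA molecule. Of 25511 barcodes, 22095 cells passed the filters, 6162 in control, 7546 in scratch-negative and 8387 in scratch-positive, with median depths of 8871, 11190.5 and 36170 UMIs. The libraries shared 16 to 30 barcode sequences in pairs and 0 in all 3. Levels are CPM, the summed UMIs of a gene divided by all UMIs of the same cells and scaled to parts per 1000000, and all 95% intervals cover counting error only. A difference is called higher or lower where it reached 1.5-fold with its whole interval on that side of 1 and at least 10 UMIs in the 2 libraries together.

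ADAMTS proteases are made as inactive precursors, are activated by furin-like convertases and act outside the cell on matrix proteins. Adamts1, Adamts4 and Adamts5 cleave large hyaluronan-binding proteoglycans such as versican and aggrecan. Adamts2 removes the amino-terminal propeptide of fibrillar procollagens, a step before collagen fibrils form. Adamts12 carries a mucin-like stretch and is known to cleave cartilage oligomeric matrix protein. TIMP3 is the main tissue inhibitor of several of these enzymes, and the receptor LRP1 removes some of them from the matrix. In bone tissue they are studied mostly in joints, the growth plate and the turnover of connective tissue.

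The members share a catalytic centre, in which a glutamate and 3 histidines hold and use a zinc ion. The coding sequence of that centre is shown because it is what unites the 5 genes as proteases while they differ in substrate. In each line the 36 bases run 5′ to 3′ along the coding strand, and capitals mark the codons of the catalytic glutamate and the zinc-binding histidines. The sequences come from GENCODE transcripts on GRCm38, the assembly that mm10 names.
Adamts1: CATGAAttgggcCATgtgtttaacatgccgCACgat
Adamts2: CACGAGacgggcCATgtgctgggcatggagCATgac
Adamts4: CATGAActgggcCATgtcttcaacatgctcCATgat
Adamts5: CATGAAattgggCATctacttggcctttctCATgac
Adamts12: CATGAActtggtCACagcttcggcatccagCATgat
Of the 36 bases, 15 were the same in all 5 genes. Adamts1 and Adamts4 shared the most, 30 bases and 7 of 12 codons, while the other pairs shared 21 to 26 bases.

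In each gene the stretch was split by an intron. The Adamts1 site lies in exons 3 and 4 of 9 at chr16:85799188-85799545 on the minus strand, and its gene spans chr16:85793827-85803113. The Adamts5 site lies in exons 2 and 3 of 8 at chr16:85878012-85887826 on the minus strand, in a gene at chr16:85856173-85901828. Adamts1 and Adamts5 are neighbours, 53059 bases apart, with 1 annotated gene (4930556C24Rik) between them. The Adamts2 site is in exons 7 and 8 of 22 at chr11:50775403-50776137, plus strand, within a gene at chr11:50602084-50807573 that overlaps 3 noncoding genes on the other strand. The Adamts4 site is in exons 3 and 4 of 9 at chr1:171253210-171253918, plus strand. Its gene spans chr1:171250421-171260637. The Adamts12 site is in exons 7 and 8 of 24 at chr15:11241529-11255567, plus strand, in a gene at chr15:11064790-11349231. The coding sequences run to 968, 1213, 845, 930 and 1600 codons for Adamts1, Adamts2, Adamts4, Adamts5 and Adamts12. Because a 3′ library was sequenced, counts of different members were not ranked against each other.

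Cells fell into 28 clusters, of which those that met a marker rule were grouped into 12 named classes. The fibroblast/periosteal class held 47 control, 553 scratch-negative and 417 scratch-positive cells and detected 10 of 10 listed markers in both of its clusters. The osteoblast-lineage class, with bone-forming genes such as Bglap and Ibsp, held 61, 72 and 14 cells. Its leading genes also included Cxcl12 and Adipoq, genes of marrow reticular cells. The epithelial/tumour class held 0, 168 and 3608 cells. Its 3 clusters detected 4, 5 and 4 of 9 listed markers by the same rule, and Krt5 had no UMI in scratch-negative. A chondrocyte class held 71 shallow control cells (median 949 UMIs) and 1 scratch-positive cell. Endothelial cells, pericytes and meningeal cells were named in no cluster.

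All 5 members were read mainly from cells of the stroma, that is the fibroblast/periosteal and osteoblast-lineage classes. Of all UMIs of each member over the 3 libraries, these classes held 94.9% for Adamts12, 92.0% for Adamts2, 89.96% for Adamts5, 76.4% for Adamts4 and 61.4% for Adamts1. Most of what remained of Adamts1 lay in tumour cells (32.2%), as did part of Adamts4 (14.9%). In each library the highest named class of each member was one of these stromal classes, also under the 7 alternatives in which the order was recomputed. Adamts1 was highest in osteoblast-lineage cells, at 664 CPM in control and 306 CPM in scratch-negative, against 138 and 120 CPM in fibroblasts, with intervals that did not overlap. Adamts2 kept the same order at 297 and 207 CPM against 199.9 and 138 CPM. Adamts12 had the opposite order, with 43.4 and 27.3 CPM in fibroblasts against 13.1 and 8.01 CPM in osteoblast-lineage cells. Adamts5 did not separate the classes, with 196 CPM in fibroblasts and 186 CPM in osteoblast-lineage cells in control, and 134 and 154 CPM in scratch-negative. Adamts4 was at 24.5 and 45.6 CPM in fibroblasts and 62.9 and 45.1 CPM in osteoblast-lineage cells, with intervals apart in control (13.1 to 41.9 and 46.4 to 83.4) and overlapping in scratch-negative. In scratch-positive the osteoblast-lineage class held fewer than 20 cells and was not placed. An unnamed cluster led by Ptgds, Slc4a10 and S100b had 20 cells in scratch-negative and fewer in the other libraries. In those cells Adamts1 was at 284 CPM (228 to 349), Adamts2 at 239.9 CPM (189 to 300) and Adamts5 at 148 CPM (109 to 197), each overlapping the osteoblast-lineage class of that library. Adamts4 and Adamts12 had 4 and 2 UMIs there.

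**Figure D1:**
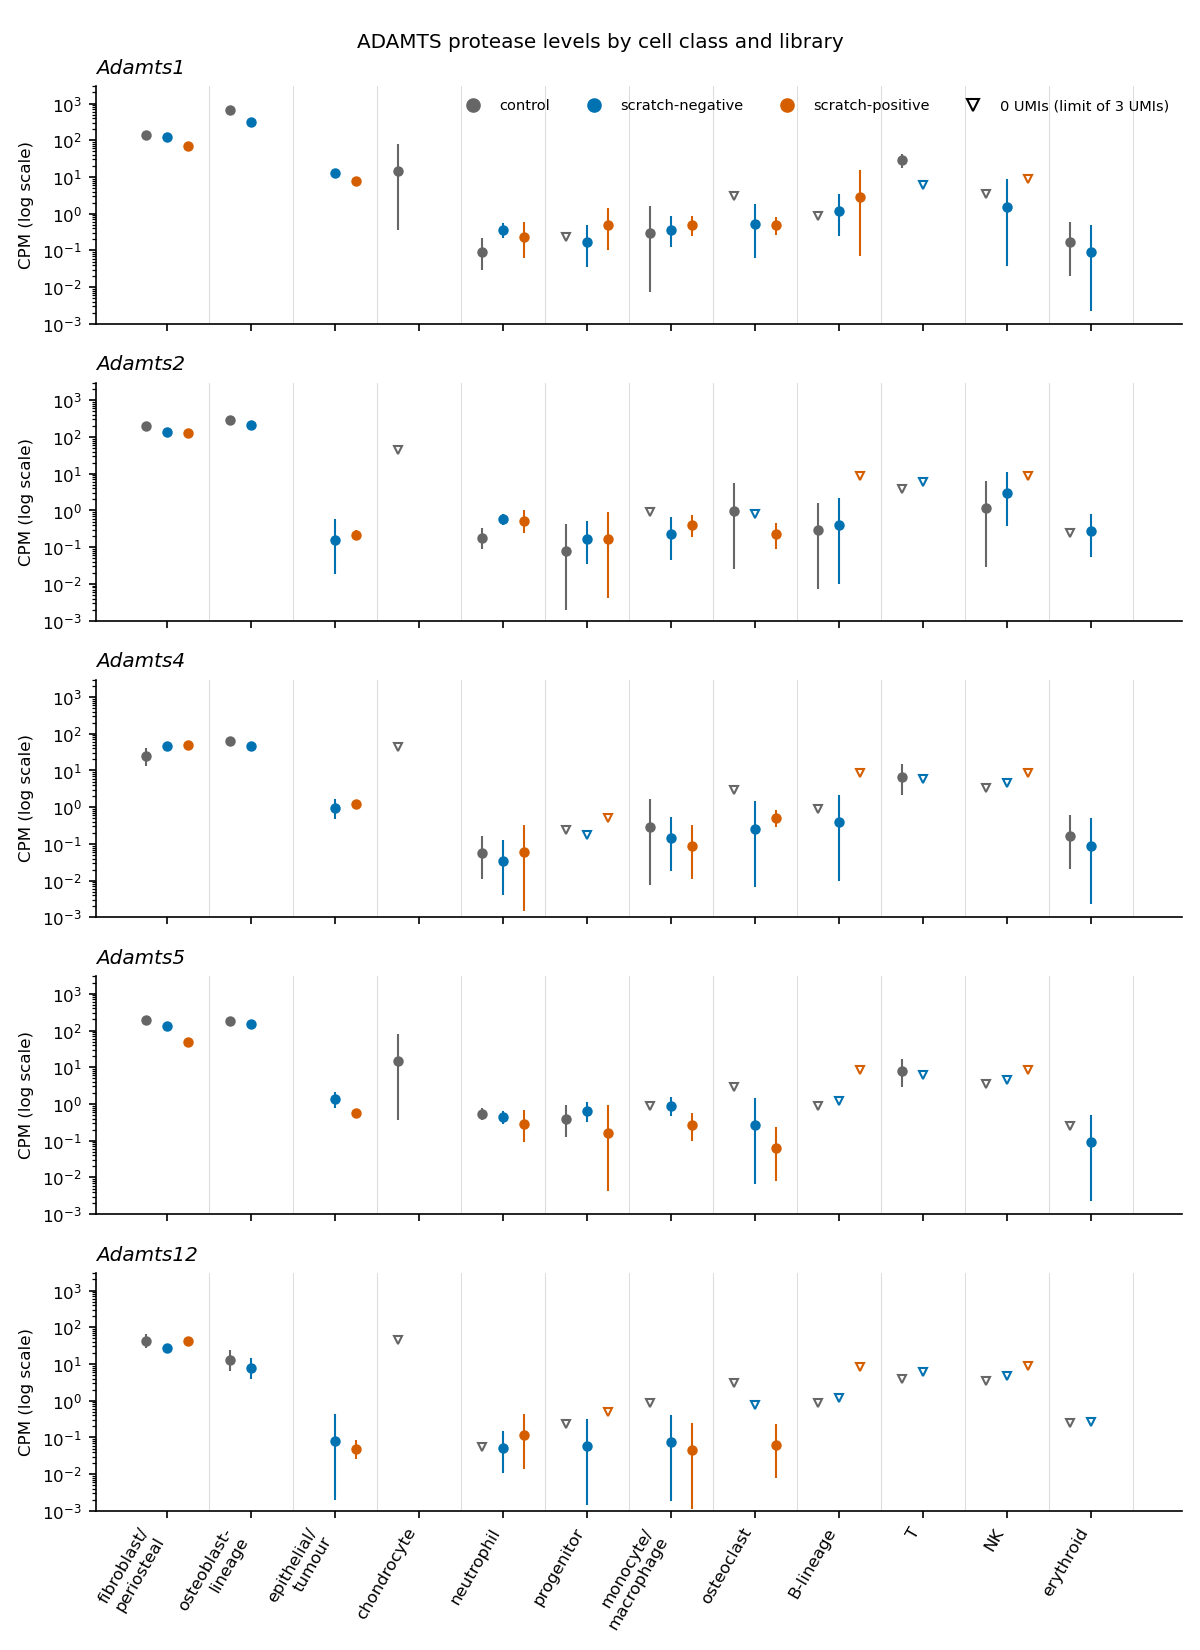
Level of each ADAMTS gene (CPM, log scale) in each named cell class with at least 20 cells, by library. Points are summed levels with 95% Poisson intervals and open triangles mark 0 UMIs, drawn at the limit of 3 UMIs. Adamts1 stands at 664 CPM in control osteoblast-lineage cells, while each neutrophil level lies below 0.6 CPM.

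Blood cells gave the background. In neutrophils, the class with the most cells in control and scratch-negative, levels ran from 0 to 0.571 CPM over the 5 members and 3 libraries. Free RNA from broken stromal cells can reach other droplets, and its part in these low levels was not tested. Col3a1 in neutrophils was at 1.16, 41.1 and 14.8 CPM in control, scratch-negative and scratch-positive. In the same order Adamts1 was at 0.0917, 0.363 and 0.234 CPM and Adamts2 at 0.183, 0.571 and 0.527 CPM. Adamts5 was at 0.532, 0.450 and 0.293 CPM, highest in control. In neutrophils 3 calls of higher were made, each on few UMIs. Adamts1 had 21 UMIs in scratch-negative and 5 in control, and Adamts2 had 33, 10 and 9 in scratch-negative, control and scratch-positive. The shares of all genes called higher were 5.1% for scratch-negative against control and 14.8% for scratch-positive against control. In monocytes/macrophages Adamts5 was called lower in scratch-positive than in scratch-negative, on 6 and 12 UMIs, where 11.3% of genes were called lower. In T cells Adamts1 was called lower in scratch-negative (0 UMIs) than in control (22 UMIs), where 4.04% of genes were called lower. All 22 UMIs, with 5 of Adamts4 and 6 of Adamts5, came from a single cell. That cell had UMIs of 7 of 7 endothelial markers and of 4 of 7 T markers. Without it the control T class had no UMI of these members. No member was called in the other comparisons of blood classes. The shares of genes called there in either direction were 14.1% in neutrophils (scratch-positive against scratch-negative), 27.9% and 36.7% in monocytes/macrophages (scratch-negative and scratch-positive against control), 20% in osteoclasts (scratch-positive against scratch-negative), 7.17% in B-lineage cells and 7.18% in erythroid cells (scratch-negative against control). In granulocyte-monocyte progenitors they were 11.4%, 10.4% and 20.1%, and in NK cells 7.14%, 8.2% and 12.2%, for scratch-negative against control, scratch-positive against scratch-negative and scratch-positive against control.

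The main question of the design is how the stroma at the bone surface differs between the 3 states, and the fibroblast/periosteal class addresses it. Adamts5 and Adamts1 were lower in scratch-positive than in scratch-negative fibroblasts, Adamts12 was higher at the edge of the rule, and Adamts2 and Adamts4 were not called. Thus 2 of 5 members were lower and 1 of 5 higher. Among 14043 genes with enough UMIs, 16.4% were lower and 10.6% higher, 27% in either direction. Against control, Adamts4 was higher in both tumour-bearing libraries.

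Adamts5, the aggrecanase most studied in cartilage, was at 196 CPM in control (95% interval 160 to 238, 104 UMIs), 134 CPM in scratch-negative (128 to 139, 2371 UMIs) and 47.3 CPM in scratch-positive (43.6 to 51.4, 579 UMIs). The 3 intervals did not overlap. Scratch-positive was 2.82-fold lower than scratch-negative (interval 2.58 to 3.096) and 4.14-fold lower than control (3.33 to 5.11). Scratch-negative stood at 0.681 of control, short of the fold rule.

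Adamts1, a versican-cleaving protease also known from ovulation, was at 138 CPM in control (108 to 173, 73 UMIs), 120 CPM in scratch-negative (115 to 125, 2122 UMIs) and 68.3 CPM in scratch-positive (63.7 to 73.1, 835 UMIs). Control and scratch-negative overlapped and scratch-positive lay below both. The difference between the tumour-bearing libraries was 1.75-fold (1.62 to 1.90), and that from control to scratch-positive was 2.02-fold (1.57 to 2.56).

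Adamts4, the other aggrecanase, was at 24.5 CPM in control (13.1 to 41.9), on 13 UMIs. It was at 45.6 CPM in scratch-negative (42.5 to 48.8, 809 UMIs) and 51.0 CPM in scratch-positive (47.1 to 55.2, 624 UMIs). Both tumour-bearing libraries lay above the control interval. The ratio to control was 1.86 (1.08 to 3.51) in scratch-negative, where 8.23% of 13403 genes were higher and 16.1% lower, and no member was lower. In scratch-positive it was 2.08 (1.21 to 3.93), where 12.7% of 12599 genes were higher and 19.1% lower.

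Adamts2, the procollagen processing enzyme, was at 199.9 CPM in control (164 to 242, 106 UMIs), 138 CPM in scratch-negative (133 to 144, 2449 UMIs) and 127 CPM in scratch-positive (121 to 134, 1557 UMIs). Control was above both tumour-bearing libraries, which differed little from each other (ratio 0.923). Of the 3 comparisons, scratch-positive against control passed the rule, 1.57-fold lower (1.28 to 1.91). It missed the rule with trimmed-mean (TMM) scaling, at a ratio of 0.780, and with equal weight per cell, at 0.680. Together with Adamts1 and Adamts5 this made 3 of 5 members lower against control.

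Adamts12 was at 43.4 CPM in control (27.5 to 65.1), on 23 UMIs. It was at 27.3 CPM in scratch-negative (24.9 to 29.8, 484 UMIs) and 41.1 CPM in scratch-positive (37.6 to 44.9, 503 UMIs). Scratch-positive was 1.51 times scratch-negative (1.33 to 1.71), and control overlapped scratch-positive. The call ended under 5 alternatives, of which 4 moved the ratio to between 1.33 and 1.496 and 1 raised the required fold to 2.

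**Figure D2:**
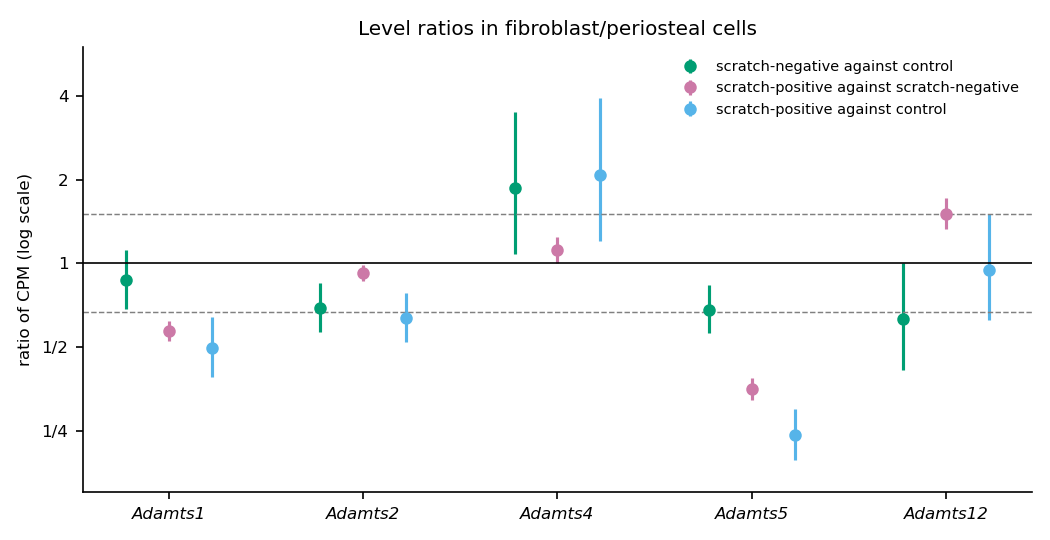
Ratio of levels between 2 libraries in fibroblast/periosteal cells (log scale) for each ADAMTS gene, with exact 95% counting intervals. The line marks a ratio of 1 and the dashed lines 1.5-fold in either direction. Adamts5 lies lowest in scratch-positive against scratch-negative and against control, and Adamts4 lies above 1.5 against control in both tumour-bearing libraries.

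Scaling mattered most for comparisons with control. TMM factors moved all ratios by 0.29 on the log2 scale for both tumour-bearing libraries against control and by -0.04 between them. With them the share of calls that were higher went from 33.9% to 57.2% for scratch-negative against control and from 39.9% to 58.8% for scratch-positive against control. Under TMM Adamts4 stayed higher (2.27 and 2.55), Adamts5 stayed lower in scratch-positive against control (0.296), and Adamts1 did too (0.607). Adamts1 in scratch-negative against control moved from 0.869 to 1.06. Markers of other cells also moved with these groups. Summed neutrophil markers in fibroblasts were at 36629 CPM in control, 32849 CPM in scratch-negative and 3845 CPM in scratch-positive, with 0 of 11 at 0 in each. Osteoblast-lineage markers were at 2567, 194 and 173 CPM, with 2, 1 and 1 of 9 at 0. Epithelial markers were at 1.89, 5.86 and 111 CPM, with 8, 3 and 1 of 9 at 0, and endothelial markers at 37.7, 46.6 and 36.8 CPM, with 5, 2 and 1 of 7 at 0. Smooth muscle/pericyte markers were at 364, 1098 and 5303 CPM, with 1 of 7 at 0 in control (Myh11) and 0 in the others. Their part in the results was not tested. Smooth muscle genes are also genes of contractile fibroblasts.

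The class was made of different clusters in different libraries. All 47 control cells lay in cluster 14, led by Clec3b and Fmod, while cluster 27, led by Crabp1, Gzmd, Tagln and Lox, held 64.7% of scratch-negative and 73.1% of scratch-positive fibroblasts. Adamts1 and Adamts5 were among the variable genes used for clustering and the other 3 members were not, so levels by cluster are a description. In cluster 14, Adamts5 was at 196, 274 and 146 CPM in control, scratch-negative and scratch-positive. Adamts1 there was at 138, 193 and 135 CPM and Adamts2 at 199.9, 209 and 111 CPM. Scratch-negative was thus the highest of the 3 libraries for each of these members within cluster 14. Its ratio to control was 1.395 for Adamts5, 1.40 for Adamts1 and 1.04 for Adamts2, and none of these was called. Scratch-positive against scratch-negative, 2 of 5 members were lower there, Adamts5 (1.88-fold) and Adamts2 (1.89-fold), and 0 of 5 higher, beside 12.9% of all genes lower and 5.51% higher. Adamts4 in cluster 14 was at 24.5, 49.4 and 41.3 CPM, which kept the call in scratch-negative (2.01) where 5.76% of genes were higher and 6.95% lower, and lost it in scratch-positive (1.68, interval 0.935 to 3.29), where 9.39% of genes were higher. Adamts2 stayed lower in scratch-positive than in control (1.81-fold), beside 13.2% of genes. Adamts1 in scratch-positive was level with control in this cluster (0.983, interval 0.757 to 1.29).

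In cluster 27, which control lacked, Adamts5 was at 103 CPM in scratch-negative and 26.9 CPM in scratch-positive, 3.82-fold lower (3.35 to 4.36). Adamts1 was at 103 and 54.3 CPM, 1.90-fold lower. Adamts12 was at 26.6 and 41.7 CPM, 1.57-fold higher. Adamts2 (122 and 131 CPM) and Adamts4 (44.7 and 53.1 CPM) were not called. Of all genes in this cluster 15.7% were lower and 13.6% higher.

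A finer division, examined after the data were seen, split the class into 4 clusters and changed the Adamts5 result most. Finer cluster 17 was led by Fmod, Ostn and Ptn, 18 by Clec3b, Myoc and Tnxb, 37 by Rarres2, Ndufa4l2 and Lox, and 40 by the granzyme genes Gzmd, Gzmc and Gzme with the contractile genes Actg2 and Tagln. Cluster 17 was not named by the marker rule at this resolution, since genes of another class were among its leading genes, though 10 of 10 fibroblast markers were detected. The rule also named cluster 32, shallow cells (median 1345 UMIs) that lay outside the class, on 8 of 10 fibroblast markers. Scratch-positive against scratch-negative (22 and 109 cells), Adamts2 (2.28-fold) and Adamts4 (2.50-fold) were higher in cluster 32. Adamts1, Adamts5 and Adamts12 were not called, and the share of all genes was not computed there. Neutrophil markers in cluster 32 summed to 16193 CPM in scratch-positive and 226227 CPM in scratch-negative, and their part was not tested. In cluster 23 of the main division, an unnamed group of shallow cells, the ratios lay below 1. They were 0.757 for Adamts2 and 0.744 for Adamts4, and neither was called. Cluster 37 made up 63.3% of scratch-negative fibroblasts and 10.8% of scratch-positive ones, and cluster 40 made up 1.45% and 62.1%. Adamts5 was at 577 CPM in cluster 18 of scratch-negative (532 to 625). It was at 104 CPM in cluster 37 of scratch-negative and 79.6 CPM in cluster 37 of scratch-positive. In cluster 40 of scratch-positive it was at 17.8 CPM (15.1 to 20.9), the lowest of these values. The ratio of the 2 libraries was 0.768 (0.631 to 0.926) within cluster 37 and 0.881 (0.735 to 1.05) within cluster 17, so neither passed the rule. Within cluster 17 Adamts5 was at 74.96 CPM in control, 128 CPM in scratch-negative and 113 CPM in scratch-positive. Both tumour-bearing libraries were higher than control there, by 1.71-fold (1.17 to 2.58) and 1.502-fold (1.02 to 2.28), on 30 control UMIs in 33 cells. In this cluster 6.05% and 10.5% of genes were higher and 5.82% and 10.8% lower. In the class as a whole Adamts5 was called lower than control in scratch-positive, and in scratch-negative it was below control without passing the rule. The smooth muscle marker sum was 6763 CPM in cluster 40, 1916 CPM in cluster 37 of scratch-positive and 1174 CPM in cluster 37 of scratch-negative.

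The other members varied less across these clusters. Adamts1 was at 312 CPM in cluster 18 of scratch-negative, and in cluster 37 it was at 104 and 66.2 CPM in scratch-negative and scratch-positive, 1.58-fold lower, beside 7.88% of genes. In cluster 40 it was at 52.5 CPM. In cluster 17 Adamts1 was at 147, 136 and 115 CPM in control, scratch-negative and scratch-positive, and no comparison there was called. The ratio was 0.849 (0.711 to 1.01) between the tumour-bearing libraries and 0.781 (0.584 to 1.06) for scratch-positive against control. Adamts2 was at 306 CPM in cluster 18, 123 and 150 CPM in cluster 37, and 128 CPM in cluster 40. In cluster 17 Adamts2 was at 202, 162 and 104 CPM, 1.56-fold lower in scratch-positive than in scratch-negative, beside 9.92% of genes. Adamts4 was at 44.5 and 45.5 CPM in cluster 37, a ratio of 1.02, and at 54.3 CPM in cluster 40. In cluster 17 Adamts4 was at 27.5 CPM in control (11 UMIs), 36.8 CPM in scratch-negative and 37.2 CPM in scratch-positive. Its ratios to control there were 1.34 (0.710 to 2.79) and 1.35 (0.714 to 2.83), so the calls of the whole class were lost. Adamts12 was at 26.0 and 38.8 CPM in cluster 37, a ratio of 1.49 just short of the rule, and at 23.5 and 37.7 CPM in cluster 17, 1.61-fold higher, where 5.3% of genes were higher.

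**Figure D3:**
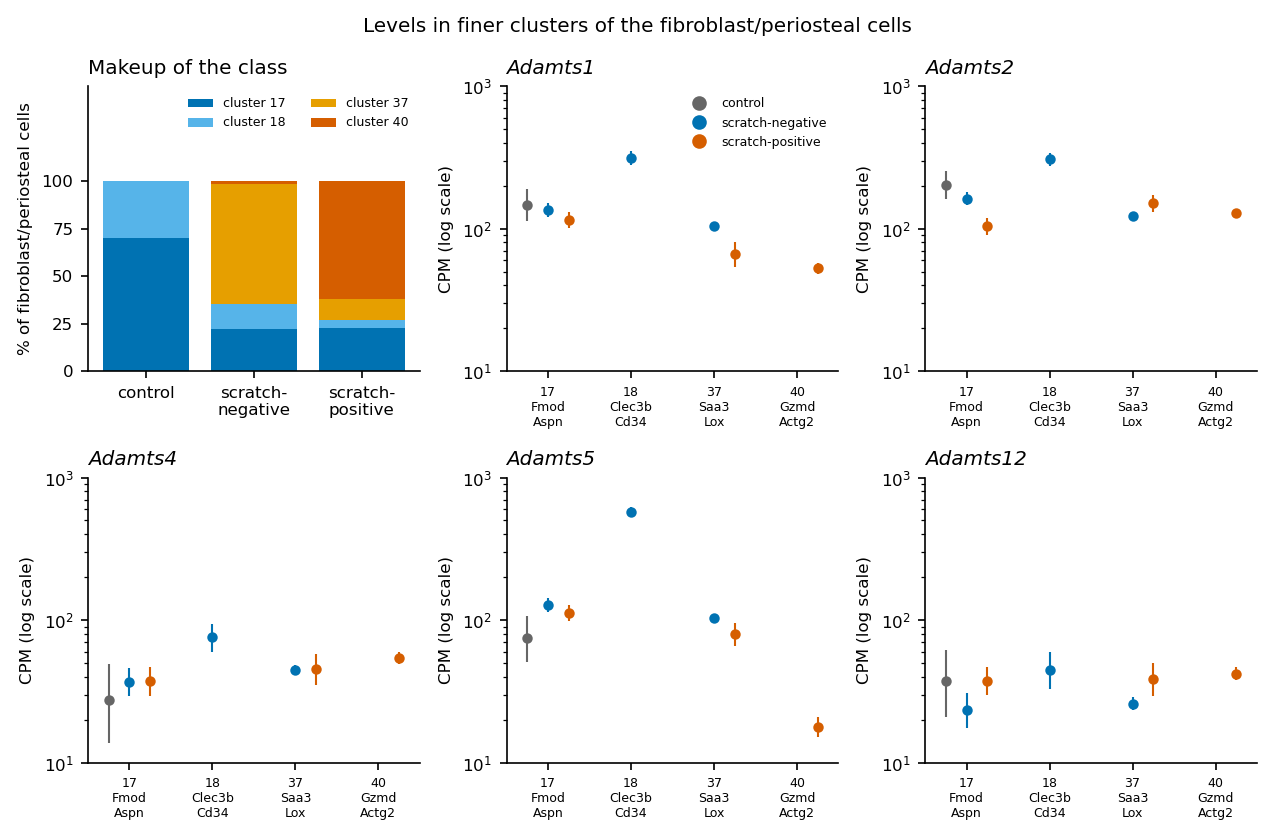
Share of fibroblast/periosteal cells in each finer cluster (%, first panel) and level of each ADAMTS gene in those clusters (CPM, log scale, 95% Poisson intervals, at least 20 cells). Adamts5 spans 577 CPM in cluster 18 to 17.8 CPM in cluster 40, and scratch-positive fibroblasts are mostly cluster 40.

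Shares of cells with a UMI were compared at equal depth. Fibroblasts had median depths of 10887, 29990 and 28535 UMIs, so each cell was thinned to 3000 UMIs, which left out 2, 6 and 5 cells. An Adamts5 UMI was then seen in 28.9% of 45 control cells (16.4 to 44.3), 27.1% of 547 scratch-negative cells (23.4 to 31.0) and 11.9% of 412 scratch-positive cells (8.93 to 15.4). Adamts1 was seen in 17.8%, 27.1% and 15.3%. For both genes the scratch-positive interval lay wholly below that of scratch-negative. Adamts4 was seen in 2.22%, 13.5% and 15.3% of cells, the control value being 1 cell. Adamts2 (42.2%, 35.1% and 34.2%) and Adamts12 (11.1%, 8.78% and 11.7%) had overlapping intervals in all libraries. In thinned neutrophils, at median depths of 8420.5 to 9978 UMIs, no member reached more than 0.214% of cells. Unthinned shares in fibroblasts were 53.2%, 66.9% and 42.0% for Adamts5 and 53.2%, 72.9% and 60.9% for Adamts1. They were 23.4%, 57.7% and 64.7% for Adamts4, 83.0%, 91.1% and 91.1% for Adamts2, and 42.6%, 47.2% and 61.2% for Adamts12.

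**Figure D4:**
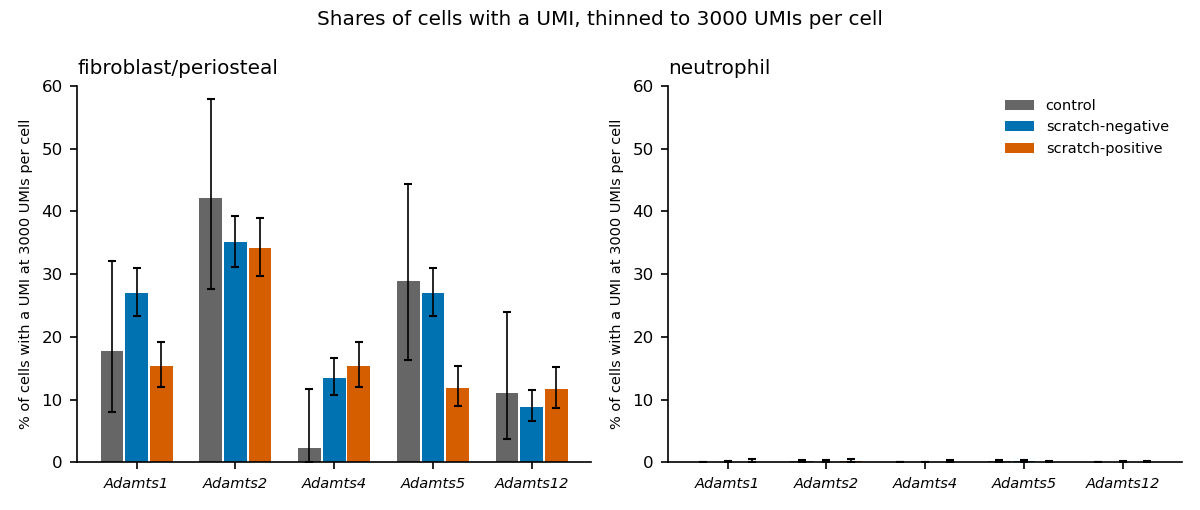
Share of cells with at least 1 UMI of each ADAMTS gene after thinning each cell to 3000 UMIs, in fibroblast/periosteal cells and in neutrophils as background. Bars are shares by library with exact 95% binomial intervals. Adamts5 stands at 27.1% in scratch-negative and 11.9% in scratch-positive fibroblasts, and neutrophil shares stay at or below 0.214%.

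Whether the neighbouring genes Adamts1 and Adamts5 were read from the same fibroblasts was compared with other pairs. At 3000 UMIs an Adamts5 UMI was seen in 35.8% of 148 scratch-negative cells with Adamts1 and 23.8% of 399 without. In scratch-positive it was seen in 23.8% of 63 cells with Adamts1 and 9.74% of 349 without. In control it was seen in 2 of 8 cells with Adamts1 and 11 of 37 without. For Adamts5 beside Adamts4 the shares were 28.4% and 26.8% in scratch-negative and 7.94% and 12.6% in scratch-positive. The share of cells with an Adamts1 UMI beside Adamts4 and without it was 37.8% and 25.4% in scratch-negative and 14.3% and 15.5% in scratch-positive, and beside Adamts12 39.6% and 25.9%, and 14.6% and 15.4%. The share with Adamts2 beside Adamts1 and without it was 38.5% and 33.8% in scratch-negative and 44.4% and 32.4% in scratch-positive. In scratch-negative the gap for the neighbours was thus about that of Adamts1 with Adamts4 or Adamts12. Cells of 1 library share their source, and these shares are a description.

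Within the osteoblast-lineage class, control could be compared with scratch-negative. Adamts1 was at 664 CPM in control (607 to 724, 507 UMIs) and 306 CPM in scratch-negative (278 to 337, 421 UMIs), 2.17-fold lower (1.90 to 2.47). It was the only member of 5 called, where 11.2% of 9880 genes were lower and 4.12% higher. Single cells held up to 59 Adamts1 UMIs in control and 81 in scratch-negative. With every cell weighted equally the ratio was 0.686 and the call ended. Adamts2 (297 and 207 CPM), Adamts4 (62.9 and 45.1 CPM), Adamts5 (186 and 154 CPM) and Adamts12 (13.1 and 8.01 CPM) were not called. Neutrophil markers in these cells summed to 21584 CPM in control and 52026 CPM in scratch-negative, with 0 of 11 at 0, and fibroblast/periosteal markers to 94719 and 125966 CPM.

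Most Adamts1 UMIs of the class came from cells rich in the reticular cell genes, 467 of 507 in control and 373 of 421 in scratch-negative. A split made after seeing the data set cells with more UMIs of Cxcl12, Adipoq and Lepr than of Bglap, Bglap2 and Ibsp (32 control and 36 scratch-negative cells) apart from the rest (29 and 36 cells). On each side at most 1 cell per library lay within 2-fold of the cut. On the Cxcl12 side Adamts1 was at 1661 CPM in control and 925 CPM in scratch-negative. On the Bglap side it was at 82.9 and 49.4 CPM. The sides thus differed 20.03-fold in control and 18.7-fold in scratch-negative. Adamts4 differed 14.8-fold (153 and 10.4 CPM) and 11.2-fold (127 and 11.3 CPM), Adamts5 3.47-fold and 3.97-fold, and Adamts2 1.76-fold and 2.02-fold. In control 4 of 5 members were higher on the Cxcl12 side, beside 25.7% of all genes, and in scratch-negative 5 of 5, beside 34.4%. Adamts12 in scratch-negative rested on 8 and 3 UMIs.

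Between libraries Adamts1 was 1.80-fold lower in scratch-negative on the Cxcl12 side (1.56 to 2.06), where 5.66% of genes were lower, and 1.68-fold lower on the Bglap side (1.07 to 2.61), where 11% were. Both differences were smaller than the 2.17-fold of the whole class. Adamts5 on the Cxcl12 side hardly differed, at 338 and 327 CPM. A list of 10 immediate stress genes, which respond to tissue dissociation, summed to 23113 CPM in control and 16346 CPM in scratch-negative on the Cxcl12 side and to 5265 and 5833 CPM on the Bglap side. Their part in the Adamts1 result was not tested.

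**Figure D5:**
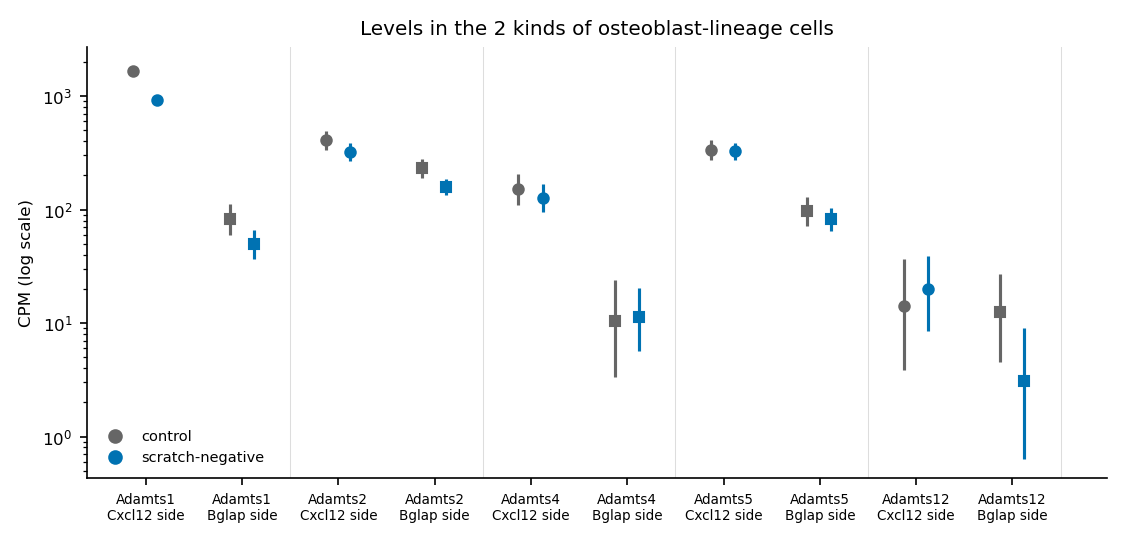
Level of each ADAMTS gene (CPM, log scale, 95% Poisson intervals) in osteoblast-lineage cells with more Cxcl12, Adipoq and Lepr UMIs (circles) and in the others (squares), for control and scratch-negative. Adamts1 stands at 1661 and 925 CPM on the Cxcl12 side and at 82.9 and 49.4 CPM on the Bglap side.

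Tumour cells carried Adamts1 at a level well under that of stroma. Adamts1 was at 13.2 CPM in scratch-negative (11.2 to 15.3, 166 UMIs in 57 of 168 cells) and 7.77 CPM in scratch-positive (7.43 to 8.13, 1916 UMIs in 871 of 3608 cells), 1.69-fold lower (1.44 to 1.99). Adamts5 was at 1.35 CPM (17 UMIs) and 0.568 CPM (140 UMIs), 2.37-fold lower (1.34 to 3.94). Of the 17 scratch-negative UMIs, 15 lay in 8 cells of cluster 24, and 1 of those cells held 7. Whether the Adamts5 call holds without that cell was not tested. Adamts1 and Adamts5, 2 of 5 members, were called lower where 11.2% of 14872 genes were lower and 3.15% higher. Adamts4 was at 0.951 and 1.19 CPM and was not called. Adamts2 (0.159 and 0.219 CPM) and Adamts12 (0.0793 and 0.0487 CPM) were at or below the neutrophil levels of the same libraries or within their intervals. The Adamts5 level in scratch-positive also lay within the neutrophil interval of that library (0.0951 to 0.684 CPM), while that in scratch-negative lay above its own (0.294 to 0.659 CPM).

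Markers of other cells in tumour droplets also differed between the libraries. Neutrophil markers summed to 17087 CPM in scratch-negative and 988 CPM in scratch-positive, with 0 of 11 at 0, and smooth muscle/pericyte markers to 46.0 and 149 CPM, with 4 and 1 of 7 at 0. Their part in the results was not tested. Fibroblast/periosteal markers summed to 119 CPM in scratch-negative tumour cells and 45.4 CPM in scratch-positive ones, with 0 of 10 at 0. At the ratio of member to marker seen in fibroblasts of the same library, that would carry 0.260 and 0.0841 CPM of Adamts1. The measured levels were 50.7 and 92.4 times as high. Whether free RNA holds members and markers at the fibroblast ratio was not tested, so these multiples are a description. For Adamts5 the carried level was 0.290 and 0.0583 CPM, 4.64 and 9.73 times below the measured one, and for Adamts4 9.60 and 18.9 times. For Adamts2 the measured level was 0.529 and 1.396 times the carried one. The tumour clusters were mixed differently in the 2 libraries. Cluster 24 held 120 scratch-negative and 249 scratch-positive cells, cluster 25 held 29 and 1410, and cluster 26 held 19 and 1949. The part of this mix in the Adamts1 difference was not tested. In cluster 24, led by the interferon-induced genes Gbp4 and Iigp1, Adamts1 was at 14.2 and 8.71 CPM, 1.63-fold lower (1.28 to 2.07), beside 7.7% of genes. In cluster 25, led by Clu and Krt17, it was at 9.68 CPM (18 UMIs) and 9.35 CPM. That ratio was 0.966 (0.607 to 1.64) and was not called, where 10.2% of genes were lower, and the intervals of these clusters overlapped. Cluster 26 was at 6.69 CPM in scratch-positive and had too few scratch-negative cells to be placed.

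The wider family in fibroblasts was read from a list of 14 further ADAMTS proteases. Between the tumour-bearing libraries 12 had enough UMIs, 2 were higher and 2 lower, beside 10.6% and 16.4% of all genes. Adamts16 was at 0 UMIs in control, 5.52 CPM in scratch-negative and 34.8 CPM in scratch-positive, 6.31-fold higher (5.05 to 7.94) in the last pair. Adamts9 was at 13.2, 7.21 and 15.7 CPM, 2.18-fold higher in scratch-positive than in scratch-negative. Adamts15, an aggrecanase like Adamts4 and Adamts5, was at 15.1, 6.54 and 2.78 CPM, 2.35-fold lower, and Adamts8 rested on 20 and 2 UMIs. The list's median log2 ratio was 0.22, beside 0.02 for all genes and -0.12 for the 5 members. Against control, 10 had enough UMIs in each comparison. In scratch-negative 1 was higher (Adamts6, 3.99-fold on 2 control UMIs) and 1 lower (Adamts10, 2.34-fold). In scratch-positive Adamts16 was higher and Adamts15 and Adamts10 were lower. The shares of all genes were 8.23% higher and 16.1% lower, and 12.7% and 19.1%.

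ADAMTS-like proteins have the family's binding domains without the protease. Of 7, 5 could be compared, and 4 were lower and 0 higher in each tumour-bearing library against control. Of all genes 16.1% were lower and 8.23% higher in scratch-negative, and 19.1% and 12.7% in scratch-positive. Adamtsl4 was at 50.9, 5.58 and 3.19 CPM, 9.13-fold lower in scratch-negative than in control. Thsd4 was at 11.3, 1.13 and 2.13 CPM, on 6 control UMIs. Between the tumour-bearing libraries 3 were lower and 1 higher (all genes 16.4% and 10.6%). Adamtsl1 was at 71.2 and 30.2 CPM, 2.36-fold lower.

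Among 12 substrates and hyaluronan partners, 8 could be compared with control. In scratch-negative 4 were higher and 3 lower, beside 8.23% and 16.1% of all genes. In scratch-positive 3 were higher and 3 lower, beside 12.7% and 19.1%. Has2, a hyaluronan synthase, was at 11.3 CPM in control on 6 UMIs, 96.9 CPM in scratch-negative and 164 CPM in scratch-positive. Has1, another synthase, was at 26.4, 165 and 42.4 CPM. Versican (Vcan), the hyaluronan-binding proteoglycan that Adamts1, Adamts4 and Adamts5 cleave, was at 104, 243 and 205 CPM. Aggrecan (Acan) was at 60.4, 9.24 and 13.8 CPM and its link protein Hapln1 at 37.7, 0.845 and 2.70 CPM. Between the tumour-bearing libraries 2 of 10 were higher and 2 lower (all genes 10.6% and 16.4%), among them decorin (Dcn, 2587 and 867 CPM).

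For Adamts2, the list of fibrillar procollagens and their processing enzymes gave 10 genes. Between the tumour-bearing libraries 1 was higher (Tll1, 1.78-fold) and 1 lower (Col3a1, 15199 and 7716 CPM, 1.97-fold), beside 10.6% and 16.4% of all genes. Col3a1 encodes type III procollagen, a substrate of Adamts2, which itself did not pass the rule. Against control 9 could be compared. In scratch-negative 1 was higher and 1 lower, Bmp1 (1.95-fold), which removes the other propeptide, and Pcolce2 (6.52-fold), beside 8.23% and 16.1% of all genes. In scratch-positive 1 was higher and 5 lower, beside 12.7% and 19.1%.

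A list of 12 genes held the TIMP inhibitors, convertases, the clearance receptor Lrp1, Sdc4 and the matrix proteins Fn1, Comp and Thbs1. Of 11 compared, 8 were lower and 0 higher in scratch-positive than in scratch-negative, beside 16.4% and 10.6% of all genes, with a median log2 ratio of -0.83 against 0.02 for all genes. The 8 included the 3 matrix proteins, Fn1 at 1791 and 1133 CPM, Thbs1 at 677 and 381 CPM and Comp, a substrate of Adamts12, at 16.96 and 7.69 CPM. In neutrophils of these libraries Thbs1 was at 1193 and 1020 CPM, and neutrophil markers in the fibroblasts summed to 32849 and 3845 CPM. The part of neutrophil RNA in the Thbs1 difference was not tested. Timp3, the inhibitor of ADAMTS enzymes, was at 413, 398 and 156 CPM, 2.55-fold lower in that pair. The convertase gene Pcsk6 was at 77.3, 20.1 and 4.33 CPM, 4.64-fold lower. Against control 4 of 11 were higher and 2 lower in scratch-negative (all genes 8.23% and 16.1%), and 3 were higher and 3 lower in scratch-positive (12.7% and 19.1%). Pcsk5, a convertase gene that is also a leading gene of cluster 27, was at 11.3 CPM on 6 UMIs, 373 CPM and 180 CPM. Timp1 was at 206, 5335 and 2763 CPM and Timp2 at 1982, 458 and 567 CPM.

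A list of 16 genes held cytokines known to induce ADAMTS genes, their receptors, and the regulators Runx2, Hif1a, Nfkb1 and Pgr, and 15 could be compared. In scratch-positive against scratch-negative 8 were lower and 2 higher, beside 16.4% and 10.6% of all genes, with a median log2 ratio of -0.63 against 0.02 for all genes. Il6 was at 18.9, 139 and 54.9 CPM, 2.53-fold lower in that pair. Osmr, the oncostatin M receptor gene, was at 16.98, 108 and 57.5 CPM. Osm was at 9.43, 19.9 and 4.09 CPM in fibroblasts, where neutrophil RNA was plentiful, and at 205, 231 and 202 CPM in neutrophils. Runx2 and Tgfb1 were the 2 higher genes, 1.65-fold and 1.505-fold. Against control 7 were higher and 2 lower in scratch-negative (all genes 8.23% and 16.1%), and 6 were higher and 2 lower in scratch-positive (12.7% and 19.1%).

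Genes with the most similar pattern were sought over 27 groups of class and library with at least 50 cells, among 13613 genes, by Pearson's r of log2(CPM + 1). The groups share libraries, and stroma sets most of the likeness, so these are descriptions. Adamts1 was nearest to Fmo1 (0.956), its neighbour Adamts5 (0.954) and AI464131 (0.945). Adamts5 was nearest to Abi3bp (0.981), Scara3 (0.960) and Serping1 (0.960). Adamts4 was nearest to AI464131 (0.981), Osbpl6 (0.980) and Ramp2 (0.978). Adamts2 was nearest to Pdgfra (0.992), Bicc1 (0.992) and Slit3 (0.990), and Adamts12 to Epha3 (0.997), Tenm3 (0.996) and Lrch2 (0.995). Among the members themselves r ran from 0.811 (Adamts1 and Adamts12) to the 0.954 of Adamts1 and Adamts5.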

How the data were processed

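Single cells of mouse calvaria were profiled in 3 libraries (10x 3′ v3.1). Raw UMI counts per gene and barcode were deposited. Per the file headers Cell Ranger 6.1.2 wrote them, and the genome was mm10 per the submitters' processing notes. How reads of overlapping genes were assigned is not given in the sources used here. Total counts were 100089008, 167623741 and 395654008 in control, scratch-negative and scratch-positive.

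Barcodes with at least 500 genes and at most 10% mitochondrial UMIs were kept. Scrublet's own threshold marked 6, 0 and 632 barcodes, too few in the first 2 libraries, so the highest-scoring 0.8% per 1000 barcodes were removed (415, 605 and 716). Cells were clustered in scanpy 1.11.5 (2000 variable genes, 30 components, 15 neighbours, Leiden resolution 1.0) without batch correction and named from marker lists. A class was compared at 50 cells or more per library (fibroblasts 40). Levels carry exact Poisson, shares Clopper-Pearson and ratios exact conditional binomial 95% intervals. PCR and capture are shared within a library, so intervals cover counting error only. The calling step was checked on simulated counts. TMM factors came from edgeR 4.0.16, for scaling only.

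Named genes were all 5 members and, per list and comparison in fibroblasts, up to 2 genes with the highest and 2 with the lowest ratios among those called. A gene named for 1 comparison is given in all libraries. The T cell, the finer clusters, the sides of the osteoblast-lineage class and the family genes named in other classes were chosen after their values were seen. For likeness, the 3 genes with the highest r among those with at least 200 UMIs were named. The members and lists were chosen with earlier results of these data known. The alternatives were a minimum of 1000 or 200 genes, up to 20% mitochondrial UMIs, no doublet removal, Leiden resolution 0.5 or 2.0, TMM scaling, equal weight per cell, 1 cluster alone, a fold of 2, no UMI minimum, and thinning to 1500 or 8000 UMIs.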

Additional observations from a re-analysis of the deposited data

Results flagged for a closer look

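In 4 cases a member was called in opposite directions in different cells under the same comparison. The difference itself was not tested in any of them. In scratch-negative against control, Adamts1 was higher in neutrophils (3.96-fold, 21 and 5 UMIs) and lower in the osteoblast-lineage class (ratio 0.461) and in T cells, where 1 control cell held all UMIs. In scratch-positive against control, Adamts2 was higher in neutrophils (2.88-fold, 9 and 10 UMIs) and lower in fibroblasts (ratio 0.637). In scratch-positive against scratch-negative, Adamts12 was higher in cluster 27 (1.57-fold) and lower in cluster 23 (ratio 0.439, 13 and 16 UMIs), an unnamed group of shallow cells led by Col4a1, where 20.8% of genes were lower. The levels in neutrophils were all under 0.6 CPM.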

How the results depend on the processing

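No paired analysis was possible because each group had 1 library. In fibroblasts, 1 member higher in scratch-positive than in scratch-negative became 0 without doublet removal, at Leiden resolution 2.0, with TMM scaling, with equal weight per cell and at a fold of 2. The 2 lower became 1 at a fold of 2. For scratch-negative against control, 1 higher became 0 at a fold of 2, and 0 lower became 3 without doublet removal, 1 at Leiden resolution 0.5 and 1 with equal weight per cell. For scratch-positive against control, 1 higher became 0 and 3 lower became 1 in cluster 14 alone. Over 18 comparisons in other classes, 3 higher became 6 with equal weight per cell and 0 in 1 cluster alone, and 5 lower became 10 with equal weight per cell. The cause was not tested, except that a higher fold passes fewer genes. Adamts5 in scratch-positive against control reversed to 1.502 within finer cluster 17, with an interval of 1.02 to 2.28 on 30 control UMIs. Over these and the other alternatives, 81 recomputed counts of members stayed within 1.5 times and 15 moved. Of single-member ratios 260 stayed within their interval, 34 moved and 1 reversed, and of shares of cells at another thinning depth or none 6 stayed and 39 moved. Comparisons of fibroblasts with control could not be made at Leiden resolution 2.0, where too few control cells were named. The 47 control fibroblasts hold 13 Adamts4 and 23 Adamts12 UMIs, and this depth limits every comparison with control.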

Other observations

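Levels of other family members in further classes were as follows. Adamts14, a procollagen protease related to Adamts2, was at 44.7, 44.5 and 22.9 CPM in NK cells of control, scratch-negative and scratch-positive, on 39, 29 and 8 UMIs, and at 9.43, 14.1 and 16.03 CPM in fibroblasts. In tumour cells Adamts14 was at 7.53 CPM in scratch-negative and 2.75 CPM in scratch-positive, 2.73-fold lower (2.18 to 3.39). Adamts10 was read in many classes, at 40.6 CPM in osteoblast-lineage cells and 30.96 CPM in NK cells of control, and at 6.26 and 7.35 CPM in tumour cells of scratch-negative and scratch-positive. Adamts3, another procollagen protease, was at 4.17 and 4.40 CPM in erythroid cells of control and scratch-negative, on 50 and 49 UMIs. Adamts9 was at 99.5 and 74.96 CPM in osteoblast-lineage cells of the same libraries. Adamtsl3 in tumour cells was at 3.88 CPM in scratch-negative and 6.19 CPM in scratch-positive, 1.59-fold higher (1.20 to 2.17).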
